A study of Mus musculus with 24 samples.

Results

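Cholesterol synthesis and its transcriptional control were followed through 27 genes in whole-kidney RNA-seq of mice lacking Pex5 in the renal tubule. The genes were chosen by name, as enzymes of the pathway from acetoacetyl-CoA to cholesterol, as parts of the SREBP2 machinery or as related sterol carriers, and each symbol was matched to its Ensembl identifier in the GRCm38 annotation. Earlier results of these data were known when the genes were chosen. Their counts and medians beside those of all genes tested are therefore a description. All 27 were among the 55335 genes counted, and all 27 passed the filter on low counts that left 16092 genes for testing. Fdps passed it at the lowest level, with group means of 0.349 to 1.00 CPM (counts per 1000000 counts of a kidney, scaled by TMM).

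The cKO mice (labels KO_M for males and KO_F for females) were Pex5lox/lox/Pax8-rtTA/LC1 animals on the C57BL/6J background, in which doxycycline switches on Cre through a Pax8-driven transactivator. The controls (Ctrl_M and Ctrl_F) were Pex5lox/lox littermates, so every group carried the floxed allele, and both genotypes received doxycycline for 2 weeks from 8 weeks of age. Tissue was collected 4 weeks later, and the labels name both ZT3 and ZT9 as the time of day. There were 6 kidneys in each of the 4 groups, with 19376152 to 28470831 counts per kidney. The Pax8-driven system acts in tubule cells, whereas the RNA came from the whole kidney, with its vessels, glomeruli and interstitium. In such bulk RNA, fewer cells of a type and less RNA per cell cannot be told apart.

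PEX5 is the receptor that carries enzymes with a peroxisomal targeting signal into peroxisomes. Cholesterol is built from acetyl units through mevalonate, isoprenoids, squalene and lanosterol, and most cells, those of the tubule included, can make it. SREBP2 is held in the endoplasmic reticulum by SCAP and the INSIG proteins when sterols are plentiful. When sterols fall, SCAP escorts SREBP2 to the Golgi, where a pair of proteases release the active factor, which binds sterol regulatory elements in the promoters of most genes of the pathway, often beside CCAAT boxes bound by NF-Y.

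Pex5 itself, read over the whole gene, was lower in KO_M (41.8 to 47.3 CPM) than in Ctrl_M (49.1 to 62.8 CPM) with no overlap, by a log2 change of -0.31 ± 0.08 (SE). The exact two-sided permutation test gave p = 0.00216, the smallest that 924 arrangements allow, and edgeR gave an adjusted p of 0.0219. In females the ranges overlapped (38.0 to 48.5 CPM in KO_F against 43.0 to 61.7 CPM in Ctrl_F) and the log2 change of -0.21 ± 0.08 did not pass either test (exact permutation p = 0.0563, edgeR adjusted p = 0.177). The male call ended when the hepatocyte transcripts described below were a covariate (edgeR adjusted p = 0.112), while the log2 change stayed at -0.31. The paper reports that female cKO kidneys kept some full-length Pex5 mRNA and PEX5 protein, and proposes incomplete excision. In male cKO kidneys the protein was virtually absent, while electron microscopy found almost no peroxisomes in proximal tubules of either sex. Wherever male and female changes are compared below, sex and the extent of deletion cannot be told apart.

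Before the levels, the promoter sequences of the genes on which the results turn are shown. The first 4 lines are genes that rose in KO_M, and Cyp51 is the gene that fell. Hmgcs1 is the gene whose window holds the exact letters searched as the full sterol regulatory element core. Each run lies in the 250 bases before the RefSeq start (GRCm38.p6), trimmed to the longest stretch outside annotated exons, and is written 5′ to 3′ on the gene's strand. Capitals mark CCAAT or its reverse complement ATTGG, and the short core CACNCCAC with, where present, the T before it that makes the full core TCACNCCAC.
Lss, chr10:76531355-76531587, plus strand: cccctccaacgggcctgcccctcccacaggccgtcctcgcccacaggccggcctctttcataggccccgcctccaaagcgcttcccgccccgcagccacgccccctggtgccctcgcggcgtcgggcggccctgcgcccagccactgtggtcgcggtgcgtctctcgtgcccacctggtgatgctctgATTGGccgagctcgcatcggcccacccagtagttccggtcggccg
Nsdhl, chrX:72918412-72918520, plus strand: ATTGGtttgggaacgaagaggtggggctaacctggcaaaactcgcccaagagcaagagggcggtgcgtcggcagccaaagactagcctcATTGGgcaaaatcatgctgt
Hsd17b7, chr1:169969242-169969408, minus strand: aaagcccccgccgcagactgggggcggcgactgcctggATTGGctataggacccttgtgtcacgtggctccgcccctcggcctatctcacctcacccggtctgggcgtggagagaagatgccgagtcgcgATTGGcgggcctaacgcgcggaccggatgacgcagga
Insig1, chr5:28071162-28071362, plus strand: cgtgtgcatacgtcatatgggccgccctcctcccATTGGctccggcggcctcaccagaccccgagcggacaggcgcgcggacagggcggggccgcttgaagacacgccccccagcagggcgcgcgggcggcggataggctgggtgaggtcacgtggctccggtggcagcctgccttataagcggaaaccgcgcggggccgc
Cyp51, chr5:4104747-4104947, minus strand: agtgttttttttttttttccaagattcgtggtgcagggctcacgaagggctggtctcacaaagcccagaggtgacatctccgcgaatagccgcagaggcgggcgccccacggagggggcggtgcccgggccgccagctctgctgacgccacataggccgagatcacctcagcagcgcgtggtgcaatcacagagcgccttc
Hmgcs1, chr13:119690101-119690350, plus strand: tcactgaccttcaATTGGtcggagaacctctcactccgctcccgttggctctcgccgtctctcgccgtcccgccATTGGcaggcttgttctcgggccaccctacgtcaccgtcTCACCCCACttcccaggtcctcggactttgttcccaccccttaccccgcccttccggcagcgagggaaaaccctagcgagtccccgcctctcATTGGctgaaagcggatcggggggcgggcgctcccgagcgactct

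The letters CCAAT, on either strand, were found in the 250-base windows of 19 of the 23 genes that had a promoter entry (82.6%), against 39.7% of 11853 tested genes with an entry and 33.8% of all 32851 promoter windows. The GC box GGGCGG was present for 20 of the 23 (87.0%), against 59.9% of tested genes and 32.7% of all windows. The full core TCACNCCAC, which contains the short one, was present only in Hmgcs1 (1 of 23, against 1.28% of tested genes and 1.05% of all windows). The short core CACNCCAC was present in Acat2, Hmgcs1 and Insig1 (3 of 23, against 6.66% of tested genes and 5.29% of all windows). Both cores were searched as these exact letters, and other forms of the element were not searched for, in Cyp51 or any other gene. In Insig1 it began 9 bases before the RefSeq start, as gtgtagtgtcGTGGCGTGt at chr5:28071393-28071411, outside the stretch shown. Cyp51, the gene that fell, had its CCAAT 29 bases before the start, also outside the stretch shown. Sqle, Fdps, Fdft1 and Stard4 had no entry.

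In male cKO kidneys, Insig1, Msmo1, Hsd17b7, Fdft1, Lss and Nsdhl were among the transcripts that rose, and Cyp51 fell. Of the 27 genes, 11 were higher and 1 was lower in KO_M than in Ctrl_M (edgeR quasi-likelihood test, adjusted p under 0.05), where 4.14% of all genes tested were higher and 4.9% lower (9.05% together). Of these 12 calls, 3 (Lss, Hsd17b7 and Cyp51) stayed past the threshold under every alternative. Those of Fdft1 and Msmo1 ended with the hepatocyte transcripts described below as a covariate. The median log2 change of the 27 genes was 0.21 against 0.01 over all genes tested, and 0.11 without KO_M3. Of the 27 changes 18 were above 0, against 52.2% of all genes tested, and 16 were under DESeq2, RLE scaling, no filter on low counts or a fit of only the groups compared, and 15 of 26 where 1 CPM was required in 6 kidneys. The ranges of the kidneys did not overlap for 3 genes, all of them higher in KO_M (3.69% of all genes tested were higher without overlap). By section, the calls were 1 of 7 mevalonate and isoprenoid genes higher, 2 of 3 from squalene to lanosterol, 4 of 9 after lanosterol with 1 lower, 3 of 6 in SREBP2 control and 1 of 2 carriers and esterifying enzymes, and the difference between sections was not tested.

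**Figure D1:**
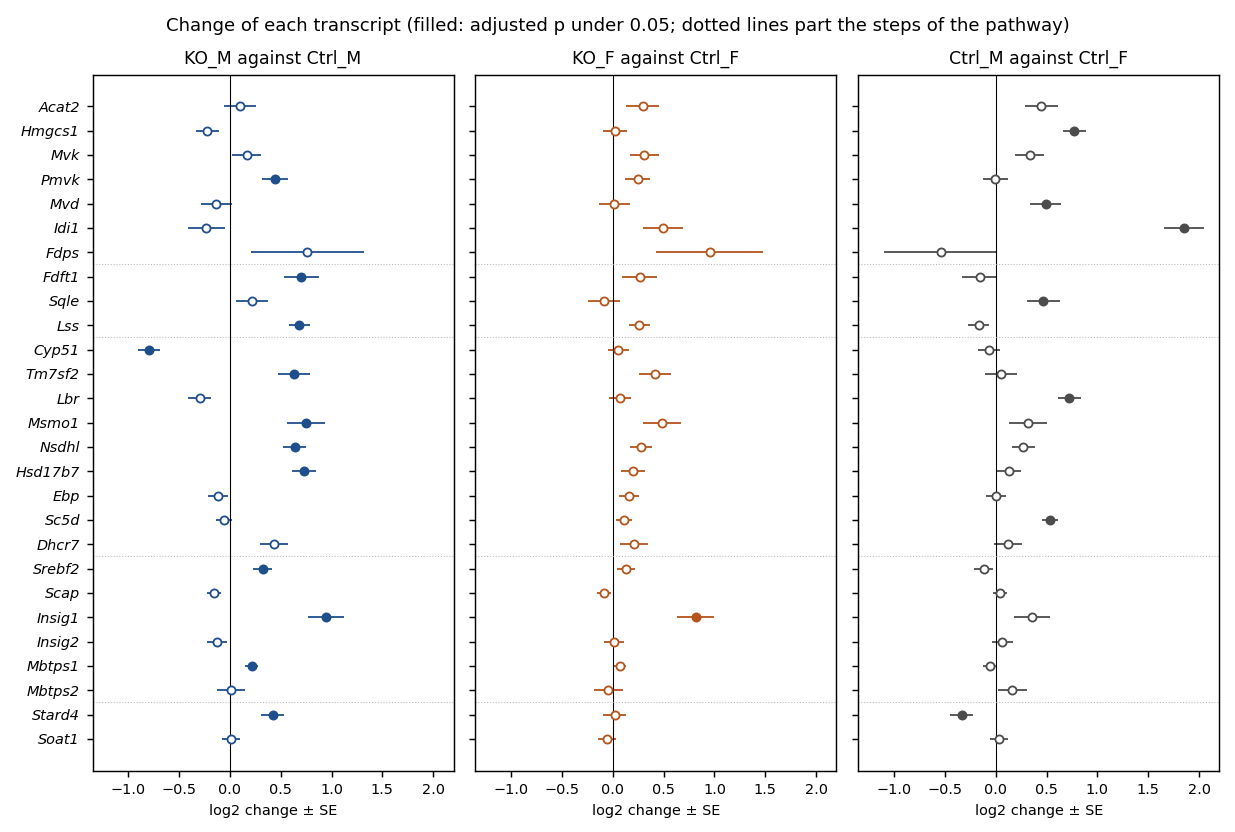
Log2 change ± SE of each of the 27 transcripts for KO_M against Ctrl_M, KO_F against Ctrl_F and Ctrl_M against Ctrl_F (n = 6 kidneys per group), in pathway order from top to bottom, with filled points for adjusted p under 0.05. The male panel has 12 filled points, of which only Cyp51 lies below 0, the female panel has 1 (Insig1), and the panel of the control sexes has 7.

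Among the mevalonate and isoprenoid genes, only Pmvk passed the test in males. Hmgcs1, which encodes the cytosolic HMG-CoA synthase, had the highest level per exon length of the 27, at 158 CPM per kb in Ctrl_M. It lay between 602 and 911 CPM (median 691) in Ctrl_M and between 500.1 and 740 CPM (median 636) in KO_M. These ranges overlapped, and its log2 change of -0.22 ± 0.11 did not pass the test (adjusted p = 0.352). Pmvk, the phosphomevalonate kinase, rose from 13.7 to 24.7 CPM (median 18.8) in Ctrl_M to 23.6 to 29.5 CPM (median 25.8) in KO_M, with a log2 change of 0.44 ± 0.12 and an adjusted p of 0.0335, a call that ended in 12 of 23 alternatives.

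The other mevalonate and isoprenoid genes did not pass the test in either cKO comparison. Acat2, the acetoacetyl-CoA thiolase, had a Ctrl_M mean of 72.3 CPM and log2 changes of 0.10 in males and 0.29 in females. Mvk, the mevalonate kinase, had a Ctrl_M mean of 9.77 CPM and changes of 0.16 and 0.31, and Mvd, the mevalonate diphosphate decarboxylase, a mean of 37.5 CPM and changes of -0.13 and 0.01. Idi1, which isomerises isopentenyl diphosphate, had a Ctrl_M mean of 7.61 CPM and changes of -0.23 and 0.49. Fdps, the farnesyl diphosphate synthase, had means of only 0.349 CPM in Ctrl_M and 1.00 CPM in KO_F, and its changes of 0.76 and 0.95 carried SEs of 0.55 and 0.52. Acat2 has a near copy, Acat3, and 26.7% of the Fdps exon bases lie in a second annotated gene on the same strand, so their counts depend on how shared reads were assigned.

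Of the 3 genes from squalene formation to lanosterol, Fdft1 and Lss rose in males. Fdft1, the squalene synthase, ranged from 20.4 to 44.4 CPM (median 23.9) in Ctrl_M and from 29.3 to 54.3 CPM (median 44.0) in KO_M. The highest control, Ctrl_M6, lay above 3 of the 6 KO_M kidneys, and the log2 change was 0.70 ± 0.17 (1.63-fold, adjusted p = 0.0124). Of the Fdft1 exon bases, 18.3% overlap the abundant Ctsb on the other strand. Lss, the lanosterol synthase (ENSMUSG00000033105, chr10:76531588-76557138), ranged from 17.1 to 27.5 CPM (median 22.7) in Ctrl_M and from 26.1 to 41.2 CPM (median 36.9) in KO_M. Only KO_M6 fell within the control range, and the log2 change was 0.68 ± 0.10 (1.60-fold, adjusted p = 7.24e-05). Sqle, the squalene epoxidase between these steps, had a Ctrl_M mean of 66.3 CPM and a log2 change of 0.22 ± 0.16 that did not pass (adjusted p = 0.571).

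Of the 9 genes that act after lanosterol, 4 rose and Cyp51 fell in KO_M. Cyp51, the lanosterol demethylase (ENSMUSG00000001467, chr5:4081145-4104746), ranged from 229 to 409 CPM (median 345) in Ctrl_M and from 175 to 233 CPM (median 187) in KO_M. The lowest control, Ctrl_M2, lay just below the highest cKO kidney, KO_M3, and no other kidneys crossed. The log2 change was -0.80 ± 0.11 (0.576 of the control level, adjusted p = 1.18e-05). In females Cyp51 lay between 317 and 383 CPM in Ctrl_F and between 323 and 416 CPM in KO_F, a log2 change of 0.05 ± 0.11 (adjusted p = 0.875). The male change was lower than the female change by -0.85 ± 0.15 on the log2 scale (adjusted p = 0.00116), and Cyp51 was the only gene of the 27 past the threshold for a difference between the sexes, where 2.31% of all genes tested were (1.49% with the lower change in males).

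Of the enzymes that act after Cyp51, Nsdhl, Hsd17b7, Msmo1 and Tm7sf2 rose in KO_M. Nsdhl (ENSMUSG00000031349, chrX:72918557-72958514), which removes a methyl group at the fourth carbon of the sterol together with MSMO1 and HSD17B7, ranged from 46.9 to 84.8 CPM (median 63.8) in Ctrl_M and from 86.4 to 117 CPM (median 100.7) in KO_M, with no overlap and a log2 change of 0.64 ± 0.11 (adjusted p = 4.68e-04). Hsd17b7, the ketosterol reductase (ENSMUSG00000026675, chr1:169949535-169969241), ranged from 15.5 to 26.0 CPM (median 22.5) in Ctrl_M and from 31.3 to 44.5 CPM (median 33.4) in KO_M, again without overlap, with a log2 change of 0.73 ± 0.12 (adjusted p = 1.48e-04). Msmo1, the methylsterol oxidase, ranged from 23.4 to 46.8 CPM (median 28.8) in Ctrl_M and from 27.9 to 72.4 CPM (median 50.5) in KO_M. Its log2 change was 0.75 ± 0.19 (adjusted p = 0.0160), while KO_M6 lay at the level of the controls. KO_M1 (43.4 CPM) and KO_M4 (39.3 CPM) also lay below the highest control, Ctrl_M6. The Msmo1 call ended in 5 of 23 alternatives, among them leaving out KO_M2, leaving out KO_M3 and fitting only the groups compared.

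Tm7sf2, one of the sterol reductases that act straight after Cyp51, was low but separated the groups, with 5.18 to 7.28 CPM (median 6.69) in Ctrl_M and 7.92 to 12.4 CPM (median 9.26) in KO_M. Its log2 change was 0.63 ± 0.16 (adjusted p = 0.0137), a call that ended in 3 of 23 alternatives, without KO_M5 among them, and 12.1% of its exon bases lie in Vps51 on the same strand. Lbr, which encodes the other reductase of this step and is also a nuclear membrane protein, did not pass in males (log2 change -0.30 ± 0.11, adjusted p = 0.130, Ctrl_M mean 31.2 CPM) or in females (0.07). Dhcr7, the last reductase of the pathway, missed the threshold in males with a log2 change of 0.43 ± 0.14 (adjusted p = 0.0687, Ctrl_M mean 24.8 CPM) and had a female change of 0.21. Ebp, the sterol isomerase (Ctrl_M mean 78.9 CPM), and Sc5d, the sterol desaturase (69.7 CPM), had male changes of -0.11 and -0.06 and female changes of 0.16 and 0.11, none past the threshold.

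**Figure D2:**
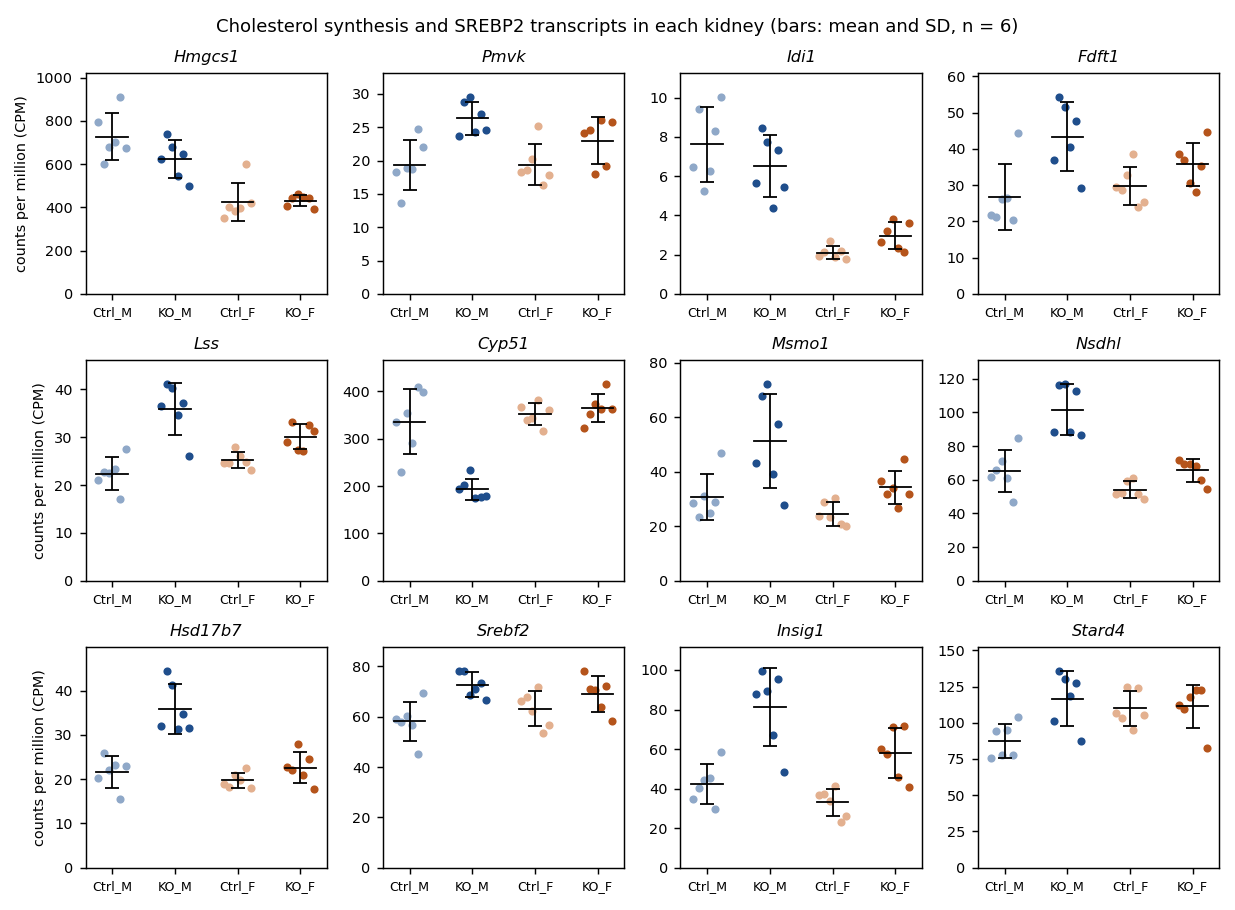
Level of 12 transcripts in each kidney in CPM, by group (points: 6 kidneys per group, replicate 1 to 6 from left to right, bars: mean and SD, linear axes from 0). Nsdhl and Hsd17b7 do not overlap between KO_M and Ctrl_M, Cyp51 is lower in KO_M only, and Insig1 is higher in cKO kidneys of both sexes.

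In the SREBP2 system, Insig1 had the largest change that passed the test, and it was the gene called in both sexes. Insig1 (ENSMUSG00000045294, chr5:28071363-28078662), which encodes a retention protein of SREBP2 and is itself induced by SREBP2, ranged from 29.4 to 58.7 CPM (median 42.4) in Ctrl_M and from 48.1 to 99.7 CPM (median 88.6) in KO_M. Only KO_M6 fell within the control range, and the log2 change was 0.95 ± 0.18 (1.93-fold, adjusted p = 0.00116). In females it ranged from 23.2 to 41.3 CPM (median 35.2) in Ctrl_F and from 40.8 to 71.8 CPM (median 58.9) in KO_F. Only KO_F6 fell within the female control range, and the log2 change was 0.81 ± 0.18 (1.76-fold, adjusted p = 0.00535). The Insig1 response was larger in males by 0.13 ± 0.25 on the log2 scale, which did not pass the interaction test (adjusted p = 0.865).

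Srebf2, the gene of SREBP2, ranged from 45.3 to 69.5 CPM (median 58.6) in Ctrl_M and from 66.6 to 78.4 CPM (median 72.2) in KO_M, a log2 change of 0.32 ± 0.09 (adjusted p = 0.0348). Mbtps1, the site-1 protease, ranged from 97.3 to 114 CPM (median 104) in Ctrl_M and from 114 to 129 CPM (median 122) in KO_M, the smallest of the changes that passed (0.21 ± 0.06, adjusted p = 0.0393). The highest control for Mbtps1, Ctrl_M1, lay just above KO_M1 and KO_M6. Both calls lay close to the threshold, and they ended in 13 and 17 of 23 alternatives. Scap, the escort protein, had a Ctrl_M mean of 67.5 CPM and changes of -0.16 in males and -0.09 in females. Insig2, the second retention protein, had a mean of 36.9 CPM and changes of -0.12 and 0.01, and Mbtps2, the site-2 protease, a mean of 19.5 CPM and changes of 0.01 and -0.05, none past the threshold. Of the Mbtps2 exon bases, 28.4% lie in Yy2 on the same strand, so reads that fit both genes may be missing from its counts.

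Of the carriers and esterifying enzymes, Stard4, a cytosolic cholesterol carrier, ranged from 75.5 to 104 CPM (median 85.8) in Ctrl_M and from 87.5 to 136 CPM (median 123) in KO_M, with overlap. Its log2 change was 0.42 ± 0.11 (adjusted p = 0.0234), a call that ended in 8 of 23 alternatives. Soat1, which esterifies cholesterol for storage, had a Ctrl_M mean of 24.2 CPM and changes of 0.01 in males and -0.06 in females.

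In females, 1 of the 27 genes passed the test, Insig1, where 0.851% of all genes tested did (0.391% higher). The other 26 had log2 changes between -0.09 and 0.95, the largest being Fdps at the lowest level, and adjusted p from 0.153 to 0.981. At an unadjusted p under 0.05 there were 7 of 27, against 6.73% of all genes tested. The median log2 change was 0.16 against 0.00 over all genes tested, and 23 of the 27 changes were above 0, against 50.5% of all genes. No gene of the 27 separated the female groups without overlap, where 0.559% of all genes tested did. All 11 genes that rose in KO_M had a female change above 0 and below the male one (0.02 to 0.81, median 0.26). Their female log2 changes, beside that of Insig1, were 0.49 for Msmo1, 0.41 for Tm7sf2, 0.28 for Nsdhl, 0.26 for Fdft1, 0.26 for Lss, 0.24 for Pmvk, 0.20 for Hsd17b7, 0.13 for Srebf2, 0.07 for Mbtps1 and 0.02 for Stard4. Hmgcs1 and Sqle, which did not pass in males either, had female log2 changes of 0.02 and -0.09. The male changes of the 11 genes that rose chose them, so they are a description, and none of the 11 differed between the sexes past the threshold (adjusted p 0.0959 to 0.865).

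The raised transcripts did not rise evenly over the male kidneys. Over the 11 genes, the median log2 deviation from the Ctrl_M mean was 0.84 in KO_M2, 0.85 in KO_M3 and 0.73 in KO_M5, but 0.43 in KO_M1, 0.44 in KO_M4 and 0.20 in KO_M6. Among controls it was 0.26 in Ctrl_M6 and -0.36 in Ctrl_M5, and between -0.09 and 0.02 in the other 4. KO_M6 was the lowest KO_M kidney for 8 of the 11 genes, and Ctrl_M6 was the highest control for 7, and by this median KO_M6 stood below Ctrl_M6. For Cyp51, KO_M6 did not stand near the controls, at 180 CPM against a lowest control of 229 CPM. Among the KO_M kidneys, KO_M3 (233 CPM) and KO_M2 (201 CPM) had the most Cyp51, as they had the highest medians above, while KO_M5 had 177 CPM.

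**Figure D3:**
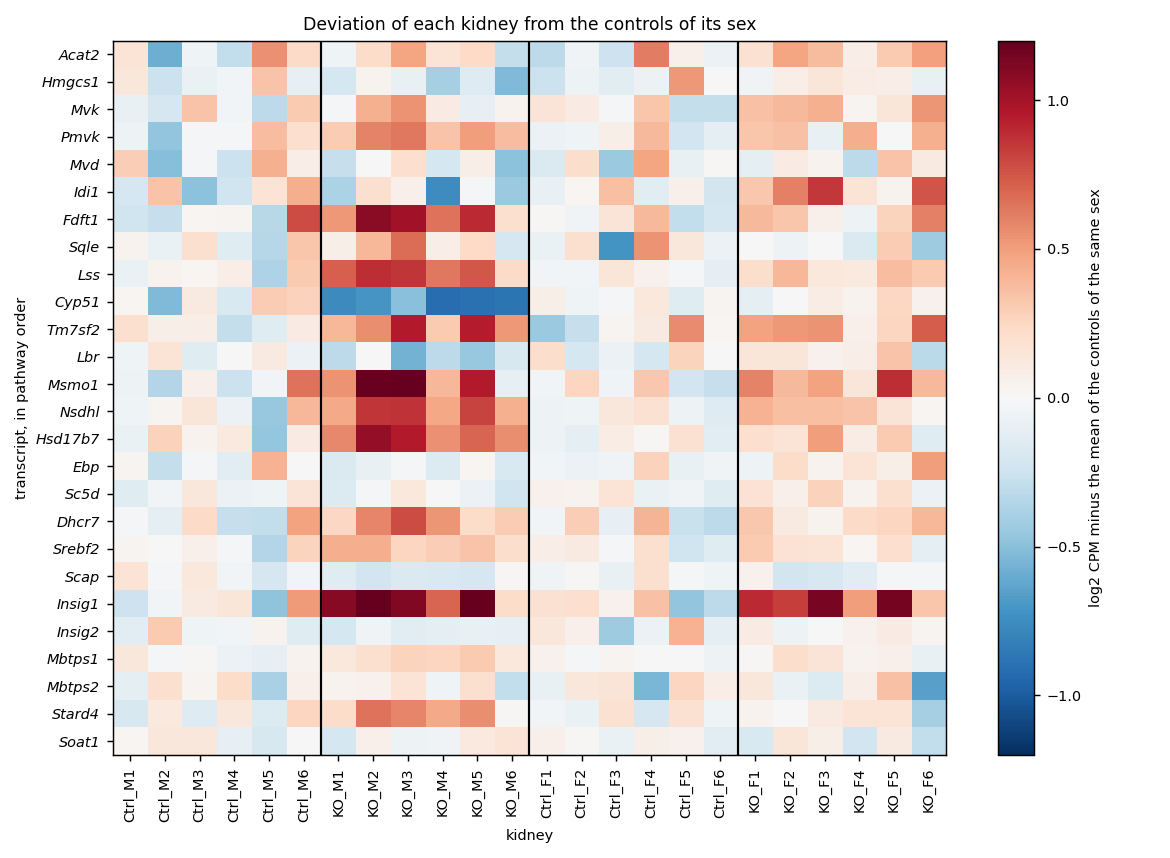
Log2 CPM of 26 of the transcripts (Fdps left out for its low level, 0.1 CPM added) in each of the 24 kidneys minus the mean of the controls of the same sex, in pathway order, with the colour scale ending at 1.2 in either direction. KO_M2, KO_M3 and KO_M5 are red for Fdft1, Lss, Msmo1, Nsdhl, Hsd17b7 and Insig1, KO_M6 is pale for most of these, and all 6 KO_M kidneys are blue for Cyp51.

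Control males and females already differed in 7 of the 27 genes, where 16.8% of all genes tested differed (8.71% higher and 8.11% lower in Ctrl_M). Higher in Ctrl_M than in Ctrl_F were Idi1 (log2 difference 1.85 ± 0.19, adjusted p = 4.48e-08), Hmgcs1 (0.77 ± 0.11, adjusted p = 1.33e-05), Lbr (0.72 ± 0.11, adjusted p = 1.65e-05), Sc5d (0.53 ± 0.08, adjusted p = 8.80e-06), Mvd (0.49 ± 0.15, adjusted p = 0.0259) and Sqle (0.47 ± 0.16, adjusted p = 0.0434). Stard4 was lower in Ctrl_M (-0.33 ± 0.11, adjusted p = 0.0383). The calls of Sqle, Mvd and Stard4 ended in 10, 7 and 10 of 21 alternatives. Idi1 ranged from 5.23 to 10.04 CPM (median 7.37) in Ctrl_M and from 1.78 to 2.71 CPM (median 2.04) in Ctrl_F. Idi1, Hmgcs1, Lbr and Sc5d had no overlap between the control sexes, where 3.95% of all genes tested were higher in males without overlap.

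This comparison uses the same Ctrl_M kidneys as the male cKO comparison, so the values stand only side by side. The KO_M against Ctrl_M changes of the genes higher in Ctrl_M were -0.23 for Idi1, -0.22 for Hmgcs1, -0.30 for Lbr, -0.06 for Sc5d, -0.13 for Mvd and 0.22 for Sqle. The median difference between the control sexes was 0.12 over the 27 genes and -0.03 over all genes tested.

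The wider pathway was read from 6 lists, of which 53 genes are reported here and 52 were tested. In males 4 were higher and 7 lower, with a median log2 change of -0.05, where 4.14% of all genes tested were higher and 4.9% lower. In females none was called, where 0.851% of all genes tested were. Of the 6 other reported SREBP2 targets, 3 rose in KO_M and 2 fell. Mmab, a cobalamin enzyme whose gene shares its promoter region with Mvk, rose from a mean of 34.4 ± 4.33 CPM (SD, n = 6) to 53.7 ± 5.95 CPM (log2 change 0.64 ± 0.09, adjusted p = 1.75e-05). Rdh11, a retinal reductase, rose by 0.48 ± 0.09 (adjusted p = 0.0015), and Tmem97, an endoplasmic reticulum sterol-binding protein, by 0.43 ± 0.11 (adjusted p = 0.0204), a call that ended in 8 of 23 alternatives. Acss2, the cytosolic acetyl-CoA synthetase, fell by 0.73 on the log2 scale without overlap (SE 0.06, adjusted p = 1.67e-08), and Aacs, the acetoacetyl-CoA synthetase, fell by 0.70 (SE 0.17, adjusted p = 0.0120).

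Of the electron donors and isoprenoid branch genes, 2 fell in KO_M and none rose. Cyb5a, the cytochrome that passes electrons to sterol oxidases, fell from a mean of 841 to 441 CPM (log2 change -0.93 ± 0.10, adjusted p = 8.31e-07, no overlap), and was 1 of 4 electron donors called. Pdss1, which builds the ubiquinone side chain, fell by 0.47 on the log2 scale (SE 0.10, adjusted p = 0.00592), 1 of 9 isoprenoid branch genes called, where 9.05% of all genes tested were called in males. The 8 SREBP processing and degradation partners reported here had no call in either sex. Of the 15 tested genes of sterol transport, efflux and LXR signalling, none passed in either sex.

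Of 10 genes of bile acid and oxysterol synthesis, 3 fell and 1 rose in males, where 4.9% of all genes tested fell and 4.14% rose. Cyp7b1, the oxysterol hydroxylase, ranged from 101 to 194 CPM in Ctrl_M and from 10.9 to 47.2 CPM in KO_M (log2 change -2.56 ± 0.23, adjusted p = 2.59e-08), while both female groups lay between 1.57 and 3.43 CPM. Amacr, which acts on branched side chains in peroxisomes, fell from a mean of 281 to 109 CPM (log2 change -1.36 ± 0.09, adjusted p = 3.21e-10), and Cyp27a1, the sterol hydroxylase of mitochondria, fell by 0.46 (SE 0.10, adjusted p = 0.00604). Hsd17b4, the peroxisomal bifunctional enzyme, rose by 0.27 ± 0.07 (adjusted p = 0.0306), a call that ended in 15 of 23 alternatives. Of the 52 pathway genes tested, the male and female changes of Cyb5a, Acss2, Cyp7b1 and Amacr differed past the threshold, where 2.31% of all genes tested did. Between the control sexes, in a comparison that shares Ctrl_M with the male one, the log2 differences were 1.18 for Cyb5a, 0.85 for Acss2, 5.84 for Cyp7b1 and 1.96 for Amacr, all higher in Ctrl_M.

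Some transcripts of other cells moved with the male groups. The summed level of 12 hepatocyte transcripts ran from 128 to 999 CPM in Ctrl_M, being high in Ctrl_M1 to Ctrl_M4, and from 80.5 to 498 CPM in KO_M, being high in KO_M4 alone. It lay between 118 and 203 CPM in the 12 female kidneys. Much of that female sum was C8a, with means of 82.7 CPM in Ctrl_F and 85.5 CPM in KO_F against 42.0 CPM in Ctrl_M. The other transcripts of the list had lower means in both female groups than in Ctrl_M. Each of the 12 transcripts was counted in 20 to 24 kidneys, and 3 of the 12 were lower in KO_M, where 4.9% of all genes tested were. With this list's mean as a covariate, 5 of the 27 genes were called in males (Lss, Nsdhl, Hsd17b7 and Insig1 higher, Cyp51 lower), and the log2 changes of Fdft1, Msmo1 and Pmvk were 0.57, 0.58 and 0.32. With the 5 high kidneys left out, a choice made after seeing the data that leaves 2 Ctrl_M and 5 KO_M kidneys, 3 were called (Lss and Hsd17b7 higher, Cyp51 lower). In that fit Insig1 had a log2 change of 0.90 (adjusted p = 0.123) and Nsdhl 0.63 (adjusted p = 0.0671), while Pmvk was at 0.16 against 0.44 with all kidneys, Fdft1 at 0.41 against 0.70 and Msmo1 at 0.47 against 0.75 (adjusted p 0.762, 0.534 and 0.493).

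**Figure D4:**
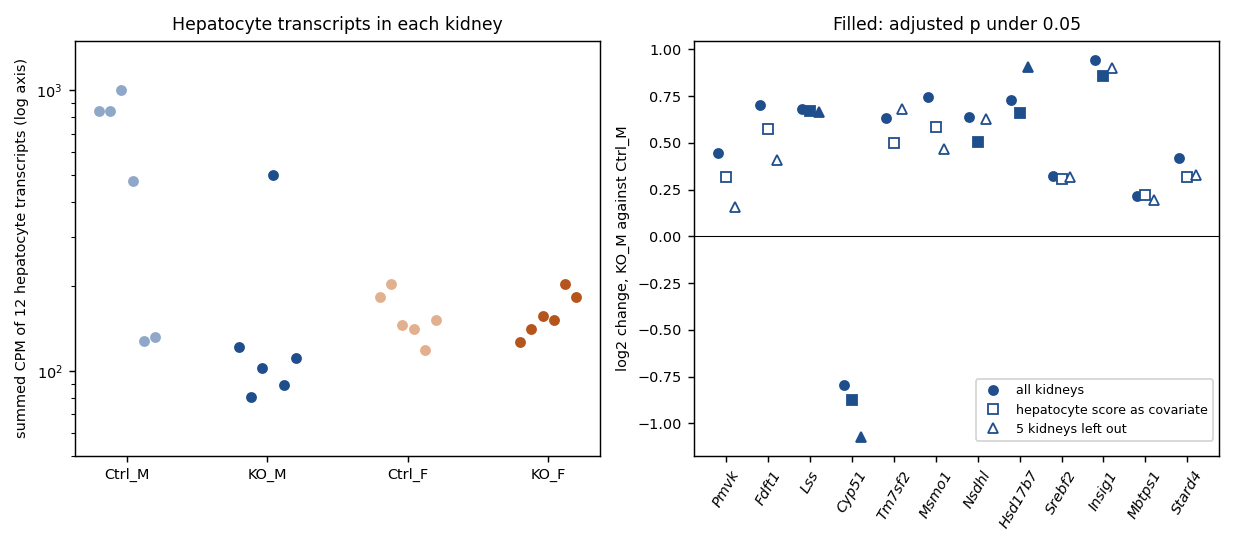
Left, summed CPM of 12 hepatocyte transcripts in each kidney on a log axis (6 kidneys per group), high in 4 Ctrl_M kidneys and 1 KO_M kidney. Right, log2 change of the 12 called genes in males with all kidneys, with the hepatocyte score as a covariate and with those 5 kidneys left out, filled where adjusted p was under 0.05: the signs are the same in all 3 fits, and Lss, Cyp51 and Hsd17b7 are filled throughout.

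Proximal tubule transcripts also moved, with 5 of 7 (Lrp2, Slc34a1, Slc22a6, Slc27a2 and Aqp1) lower in KO_M. Of all genes tested, 4.9% were lower and 4.14% higher. Cubn and Slc5a2 were not called (log2 changes -0.17 and 0.10). The summed level of the list was 9183 to 10064 CPM in KO_M against 11822 to 13934 CPM in Ctrl_M. The sum of the thick ascending limb and distal tubule list was 5918 to 6729 CPM in KO_M and 4290 to 6240 CPM in Ctrl_M, and 1 of its 4 genes was higher. Collecting duct genes had 1 higher and 1 lower of 3, podocyte genes 0 of 3 called, and macrophage genes 1 lower of 4. Of all genes tested, 9.05% were called in males. None of the 5 tested adipocyte genes was called, although the sum reached 230 CPM in 1 Ctrl_F kidney. The defining adrenal genes were at or near 0, with no count of Cyp11b2 in any kidney and a list sum of at most 3.23 CPM. Whether the changes of these tubule lists bear on the changes of the 27 genes was not tested.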

How the data were processed

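Whole-kidney poly(A) RNA was sequenced from 24 mice with stranded libraries. The deposited files hold raw read counts per Ensembl gene for each kidney, which the authors made with cutadapt 1.8, STAR 2.5.3a and HTSeq 0.9.1 on GRCm38, per the labels. The strand setting of the counting is not given in the sources used here, so overlapping and antisense genes are uncertain. Alignments that were not unique made up 26.9% to 34.8% of the lines counted. They were listed apart from the genes, as were ambiguous reads (0.706% to 0.939%), so near-identical or overlapping genes may lack reads. The 5 closing lines of each file that name no gene were set aside.

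Counts were scaled by TMM in edgeR 4.0.16 (R 4.3.3), a gene was kept where any kidney reached 1 CPM, and 1 quasi-likelihood model was fitted to all 4 groups. Benjamini-Hochberg adjustment pooled the tests of both sexes, took each other comparison alone, and used a threshold of 0.05. SE is the log2 change divided by the square root of the quasi-likelihood F. The study's voom fit (limma 3.58.1), DESeq2 1.42.0 and other choices were alternatives. Each file is a separate mouse. No 2 kidneys of a group had identical counts, and over 60 pairs the chi-square per degree of freedom was 9.83 or more. Replicate numbers did not pair the kidneys. A count of 0 allows up to 0.105 to 0.155 CPM (3 counts), for counting error only. The fit was tested on simulated counts in which 200 genes per sex were set to a log2 change of 1 in either direction. It recovered 141 of them in males and 145 in females, with 7 and 6 false calls. Some changes of that size therefore did not pass.

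The 27 genes, the pathway lists and the marker lists were chosen with earlier results of these data known. Each of the 27 is named with its level and its change in each sex, with kidney ranges where past the threshold, and other pathway genes are named where past the threshold in males or females. Promoter windows are from RefSeq. Protein sequences were not analysed here, and 1 gene of the pathway lists is not reported here. Exon lengths are from GENCODE M21.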

Additional observations from a re-analysis of the deposited data

Results flagged for a closer look

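Single kidneys stood apart from the other 5 of their group in 11 of 156 groups of 6 values checked over 39 genes (gap to the nearest kidney over the group's range above 0.625), where chance flags about 1 in 20. In Ctrl_M, replicate 6 was high for Fdft1 (44.4 CPM, the next kidney 26.3) and for Msmo1 (46.8 CPM, next 31.1), and replicate 2 was high for Insig2 (45.6 CPM, next 37.8). In KO_M, replicate 6 was high for Scap (67.9 CPM, next 60.7). In Ctrl_F, replicate 4 was high for Ebp (95.1 CPM), Acat2 (79.2 CPM) and Scap (74.9 CPM), replicate 5 was high for Hmgcs1 (601 CPM, next 419), and replicate 6 was low for Cyb5a (318 CPM, next 375). In KO_F, replicate 6 was low for Stard4 (82.7 CPM, next 109.6) and high for Cyp27a1 (48.2 CPM, next 35.7).

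By the interaction test, the change in cKO kidneys differed between males and females for 5 of the 39 genes checked. Of all genes tested 2.31% differed, 1.49% with the lower change in males. The pathway genes among the 39 were there for a call in males, so the count is a description. The male minus female log2 change was -0.85 for Cyp51 (adjusted p = 0.00116), -0.95 for Cyb5a (adjusted p = 2.67e-04), -0.58 for Acss2 (adjusted p = 2.85e-04), -2.44 for Cyp7b1 (adjusted p = 2.33e-04) and -1.33 for Amacr (adjusted p = 4.39e-07). In all 5 the male change was the lower, and the female change of none of the 5 passed the test. Sex and the extent of Pex5 deletion cannot be told apart in this comparison.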

How the results depend on the processing

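No log2 change of a called gene reversed under any alternative. The count of called genes in males (12) became 5 with the hepatocyte score as covariate and 3 with the 5 kidneys left out, and leaving out 1 kidney at a time gave 7 to 12, with 7 without KO_M2 and 7 without KO_M5. In females (1) it became 2 when only the groups compared were fitted, adding Msmo1, and 1 to 2 with kidneys left out in turn, with 2 without Ctrl_F5, adding Tm7sf2. For the difference between the sexes (1) it became 2 with the covariate, adding Idi1, and 1 to 2 with kidneys left out, with 2 without KO_M6, adding Lss. Between the control sexes (7) leaving out 1 kidney gave 4 to 9, with 4 without Ctrl_F1, Ctrl_F3 or Ctrl_M1. Other choices of tool, scaling, filter and adjustment gave 9 to 13 in males. The cause of these shifts was not tested. With kidneys left out in turn the median log2 change was 0.11 to 0.24 in males (0.11 without KO_M3) and 0.13 to 0.19 in females. The Pex5 call in males ended with the covariate (log2 change -0.31) and with the 5 kidneys left out (-0.26), and with kidneys left out in turn Pex5 changed by -0.37 to -0.27 in males, the call ending without Ctrl_M2 and without KO_M4, and by -0.25 to -0.14 in females.

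With the replicate number as a block, 10 genes were called in males, 1 in females, 1 for the difference between the sexes and 4 between the control sexes (Sqle, Mvd and Stard4 lost). Kidneys with the same number came from different mice and their deviations correlated by -0.20 to 0.12. Lss, Cyp51 and Hsd17b7 in males, Insig1 in females and Cyp51 for the difference between the sexes stayed past the threshold under every alternative run, as did Hmgcs1, Idi1, Sc5d and Lbr between the control sexes. In males Mbtps1 lost its call in 17 of 23 alternatives, Srebf2 in 13, Pmvk in 12, Stard4 in 8, Msmo1 in 5, Tm7sf2 in 3, Fdft1 in 2 and Nsdhl and Insig1 in 1. Fdps had 327 counts over the 24 kidneys.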
